A study of Mus musculus with 8 samples.

Results

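Cathepsins are the proteases of the lysosome, the acid compartment in which cells break down proteins. They are made as inactive precursors, carried from the Golgi to endosomes by mannose 6-phosphate receptors and related sorting receptors, and activated by cleavage at low pH. Most are cysteine proteases, but the family name also covers aspartic and serine enzymes. In tumours they are made both by carcinoma cells and by infiltrating cells, macrophages in particular, and they can act outside the cell on the matrix.

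The genes described here are Ctsa, Ctsb, Ctsc, Ctsd, Ctse, Ctsh, Ctsk, Ctsl, Ctss and Ctsz, 10 of the 27179 genes counted. They were chosen by name, as cathepsin genes, with no threshold on their measured values but with earlier results of these data known. All 10 were found in the table and all 10 passed the filter on low counts, as did 14382 genes in all. RNA sequencing was performed on 8 whole primary tumours grown orthotopically, in the fat pad, in BALB/c mice from 4T1.13 cells, a mouse mammary carcinoma line. The 4 VC (vector control) tumours came from cells with a lentiviral vector that carries a scrambled sequence. The 4 miR-21-KD tumours came from cells in which the same vector system expresses an RNA, driven by the H1 promoter, that sequesters the microRNA miR-21. Per the labels, 100000 cells were injected and tumours were recovered at day 14, when the miR-21-KD tumours began to regress. The text of the study gives another day. Both cell lines express mCherry and carry a hygromycin resistance gene, each is a pool of clones, and the hosts were immunocompetent. The injected cells carried the vector and the host cells did not, and the RNA came from the whole tumour. The labels do not tie tumours to named animals, so the p-values measure the spread between these tumours.

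Each tumour had between 12134849 and 13592695 counted reads, so a count of 0 allows up to 0.245 CPM (counts scaled to a library of 1000000 reads). Mir21a, the precursor gene of the sequestered microRNA, had 0 counts in all 8 tumours, which checks nothing, since the vector binds the mature RNA. The mature sequence of mmu-miR-21a-5p in RefSeq is shown because its seed, bases 2 to 8, in capitals, is what a target transcript pairs with.
mmu-miR-21a-5p: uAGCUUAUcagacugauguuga
The complement of the seed, ATAAGCT, was searched in the longest 3′ UTR of each gene of the GENCODE vM21 annotation and was present in 1510 of 21020 genes (7.18%). Of the 10 cathepsins only Ctsl held it, with 2 matches. The stretches around them are shown with the match in capitals.
Ctsl, chr13:64363370-64363398, minus strand: ctgatagggctaATAAGCTtacctcaaat
Ctsl, chr13:64359550-64359578, minus strand: ttttgctaagctATAAGCTataatcttaa
The first stretch was part of 2 of the 3 coding transcripts of Ctsl and the second of 1, beyond the 3′ end that RefSeq gives the gene. The shortest 3′ UTR of Ctsl, with 109 bases, held no match. A match is a string of letters and not a shown site.

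A second set of sequences concerns the E-box CACGTG, which the transcription factors Tfeb, Tfe3, Mitf and Tfec recognise and which lies near the start of many lysosomal genes. RefSeq promoter windows (GRCm38.p6, 250 bases before to 50 after a start site) were given for 7 of the 10 genes, namely Ctsa, Ctsc, Ctsd, Ctsk, Ctsl, Ctss and Ctsz. CACGTG reads alike on both strands and was present in a window of 3 of these 7 genes, against 8.09% of 27025 genes. The longer TCACGTGA, which contains it, was present in 2 of the 7, against 1.12% of all genes. The stretches that hold a match are given with CACGTG in capitals, in the direction of the gene.
Ctsa, chr2:164833749-164833795, plus strand: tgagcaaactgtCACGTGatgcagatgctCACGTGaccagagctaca
Ctsd, chr7:142387908-142387937, minus strand: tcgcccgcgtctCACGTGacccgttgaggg
Ctsd, chr7:142388055-142388077, minus strand: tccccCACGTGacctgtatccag
Ctsl, chr13:64370739-64370768, minus strand: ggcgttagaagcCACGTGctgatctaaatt
The Ctsa stretch spans the second of 2 start sites of the gene, with matches that begin 12 bases before and 5 bases after it. The matches of Ctsd begin 98 and 245 bases before the start site, and that of Ctsl 236 bases before a start site that lies within the outer limits of the gene. No other form of the motif was searched in these windows, and the part of such motifs in the differences below was not tested. The windows of Ctsk and Ctss held no CACGTG. The 250 bases before their start sites are printed, since these genes had the greatest fold differences below. These are reference sequences of another mouse strain than the tumours.
Ctsk, chr3:95498960-95499209, plus strand: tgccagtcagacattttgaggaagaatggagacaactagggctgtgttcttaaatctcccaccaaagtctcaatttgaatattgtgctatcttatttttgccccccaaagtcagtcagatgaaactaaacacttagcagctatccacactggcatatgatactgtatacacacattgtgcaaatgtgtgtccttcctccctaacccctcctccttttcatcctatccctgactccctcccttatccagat
Ctss, chr3:95526536-95526785, plus strand: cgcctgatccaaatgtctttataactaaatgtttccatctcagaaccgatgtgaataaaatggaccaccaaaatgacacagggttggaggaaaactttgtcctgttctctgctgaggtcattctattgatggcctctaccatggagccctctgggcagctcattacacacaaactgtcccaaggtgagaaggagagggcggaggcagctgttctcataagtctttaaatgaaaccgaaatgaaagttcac

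The question put to the counts was whether cathepsin transcripts differed between control tumours and tumours of cells with sequestered miR-21. Of the 10 cathepsins, 8 were higher in miR-21-KD tumours and 0 were lower at an adjusted p under 0.05 (edgeR quasi-likelihood test, Benjamini-Hochberg over all 14382 genes). Among all genes tested, 19.6% were higher and 19.5% were lower. The 8 genes were Ctsk, Ctss, Ctsc, Ctsh, Ctsz, Ctsd, Ctsa and Ctsl, and all but 1 of them are cysteine or aspartic proteases. At an unadjusted p under 0.05, 9 cathepsins were higher and 0 lower, against 25.3% and 25.4% of all genes. DESeq2 and limma-voom each called 9 higher and 0 lower, against 20.8% and 18.7% of all genes with DESeq2 and 19.8% and 20.2% with limma-voom. The estimates of Ctsb and Ctse were also above 0, and the median log2 fold change of the 10 genes was 0.70, against -0.01 over all genes tested. Levels in the 2 groups did not overlap, with miR-21-KD tumours higher, for 4 of the 10 genes, against 16.3% of all genes, and for 0 genes in the other direction, against 18.9%. In whole tumours, more cells of a type and more RNA per cell cannot be told apart.

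The count of 8 depended on single tumours. It fell to 5 without VC replicate 1 or without miR-21-KD replicate 1, and to 4 without VC replicate 2, VC replicate 3, miR-21-KD replicate 3 or miR-21-KD replicate 4. It was 8 without VC replicate 4 and 9 without miR-21-KD replicate 2. Ctsc, Ctsh, Ctsk and Ctss passed the threshold in all 15 other fits. Without 1 tumour the number of all genes called higher also ranged from 1449 to 3290, against 2826 with all tumours. It was 2754, 1702, 1449 and 2980 without VC replicates 1 to 4, each left out in turn. Without miR-21-KD replicates 1 to 4 it was 1862, 3290, 1982 and 1754.

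**Figure D1:**
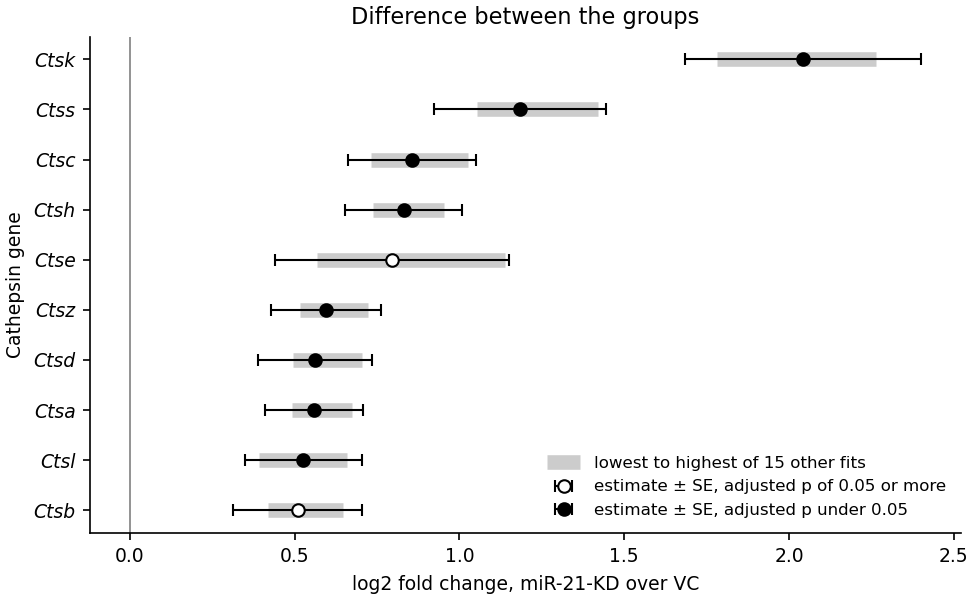
log2 fold change of each cathepsin between miR-21-KD and VC tumours (x axis), with its standard error as a bar. Filled points passed an adjusted p of 0.05, and the grey band spans the lowest to the highest estimate of 15 other fits. Every estimate and every band lies above 0, and Ctsk is farthest to the right at 2.04.

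Ctsk encodes cathepsin K, the collagen-degrading protease of osteoclasts, which macrophages and fibroblasts can also make. In the VC tumours it was at 151, 68.1, 89.6 and 116 CPM (replicates 1 to 4), and in the miR-21-KD tumours at 658, 216, 397 and 482 CPM. Even the lowest miR-21-KD tumour, replicate 2, was above every VC tumour. Ctsk rose 4.12-fold (log2 fold change 2.04, SE 0.36, adjusted p = 0.00694 by edgeR), the smallest adjusted p of the 10 genes. Its estimate lay between 1.78 and 2.26 over the 15 other fits, with a highest adjusted p of 0.0279.

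Ctss encodes cathepsin S, which cuts the invariant chain from class II molecules in antigen-presenting cells and stays active at neutral pH. It was at 955, 733, 832 and 1462 CPM in the VC tumours and at 2800, 1554, 2090 and 2594 CPM in the miR-21-KD tumours. The groups were separated by a narrow gap, between VC replicate 4 and miR-21-KD replicate 2. Ctss rose 2.27-fold (log2 fold change 1.18, SE 0.26, edgeR adjusted p = 0.0119). Ctsk and Ctss lie side by side on chromosome 3 of GRCm38, at 95499210-95509387 and 95526786-95556405, both on the plus strand and 17398 bases apart.

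Ctsc encodes dipeptidyl peptidase 1, the enzyme that activates the serine proteases of leukocyte granules. Its values were 292, 282, 230 and 407 CPM in VC tumours and 685, 490, 461 and 557 CPM in miR-21-KD tumours, with no overlap. Ctsc rose 1.81-fold (log2 fold change 0.86, SE 0.19, edgeR adjusted p = 0.0128). Here the lowest miR-21-KD tumour was replicate 3, whereas it was replicate 2 for the other 9 cathepsins. Ctsh, an aminopeptidase, was at 336, 234, 254 and 325 CPM in VC tumours and at 570, 367, 555 and 553 CPM in miR-21-KD tumours. It rose 1.78-fold (log2 fold change 0.83, SE 0.18, edgeR adjusted p = 0.0110), and again the groups did not overlap.

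**Figure D2:**
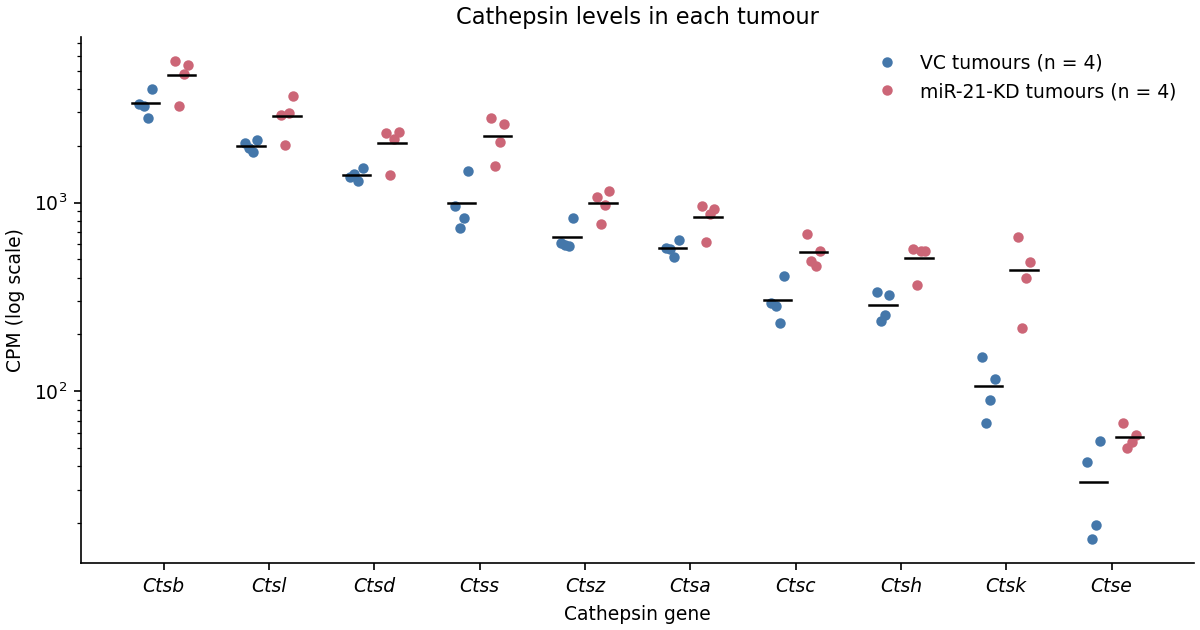
CPM of each cathepsin in every tumour (log axis), with 4 VC and 4 miR-21-KD points per gene in the order of replicates 1 to 4 and a black line at the mean. The groups are apart for Ctss, Ctsc, Ctsh and Ctsk and overlap for the other 6 genes.

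In Ctsd, Ctsl, Ctsa and Ctsz the groups overlapped, and the estimates lay between 0.53 and 0.60 on the log2 scale. Ctsd, the main aspartic protease of lysosomes, was at 1362, 1409, 1305 and 1531 CPM in VC tumours and at 2349, 1407, 2164 and 2362 CPM in miR-21-KD tumours. In Ctsd only miR-21-KD replicate 2 lay within the VC range. It rose 1.48-fold (log2 fold change 0.56, SE 0.17, edgeR adjusted p = 0.0326). Ctsl, a broad endopeptidase, was at 2080, 1940, 1856 and 2140 CPM in VC tumours and at 2893, 2015, 2978 and 3652 CPM in miR-21-KD tumours. The same tumour alone overlapped, and Ctsl rose 1.44-fold (log2 fold change 0.53, SE 0.18, edgeR adjusted p = 0.0441).

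Ctsa is a serine carboxypeptidase that also shields the enzymes encoded by Glb1 and Neu1 from degradation. It was at 577, 565, 512 and 630 CPM in VC tumours and at 954, 619, 865 and 926 CPM in miR-21-KD tumours, and rose 1.47-fold (log2 fold change 0.56, SE 0.15, edgeR adjusted p = 0.0207). Here miR-21-KD replicate 2 lay just under VC replicate 4. Ctsz, a carboxypeptidase also called cathepsin X, was at 608, 594, 591 and 829 CPM in VC tumours and at 1072, 772, 966 and 1151 CPM in miR-21-KD tumours. Its groups overlapped through VC replicate 4 and miR-21-KD replicate 2, and it rose 1.51-fold (log2 fold change 0.60, SE 0.17, edgeR adjusted p = 0.0235). Ctsa lost its call without VC replicate 2 or 3 or miR-21-KD replicate 3 or 4, where its adjusted p reached 0.0660. Ctsd and Ctsz lost theirs without any 1 tumour other than VC replicate 4 or miR-21-KD replicate 2, with adjusted p up to 0.0921 and 0.0720. Ctsl lost its call without any 1 tumour other than miR-21-KD replicate 2, and with no filter on low counts, with adjusted p up to 0.117.

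Ctsb and Ctse did not pass the test. Ctsb, a cysteine protease that works both as an endopeptidase and from the carboxyl end, had more reads than any other cathepsin. It was at 3320, 3255, 2821 and 4008 CPM in VC tumours and at 5646, 3262, 4815 and 5348 CPM in miR-21-KD tumours. Only miR-21-KD replicate 2 lay within the VC range. The log2 fold change of Ctsb was 0.51 (SE 0.20, edgeR adjusted p = 0.0659), and the adjusted p was 0.0252 with DESeq2 and 0.00930 without miR-21-KD replicate 2.

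Ctse, an aspartic protease of endosomes known from stomach mucosa and immune cells, was the lowest, at 42.0, 16.5, 19.5 and 54.7 CPM in VC tumours and 67.7, 50.3, 53.6 and 58.8 CPM in miR-21-KD tumours. VC replicates 1 and 4 were well above VC replicates 2 and 3, and only replicate 4 reached into the miR-21-KD range. The log2 fold change of Ctse was 0.80 (SE 0.36, edgeR adjusted p = 0.103). In the fit blocked on replicate number its log2 fold change was 0.95 and the adjusted p 0.0311, which changes the call. The adjusted p was also under the threshold with limma-voom, without a block, at 0.0498 (log2 fold change 0.96), and without VC replicate 4, at 0.0254.

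**Figure D3:**
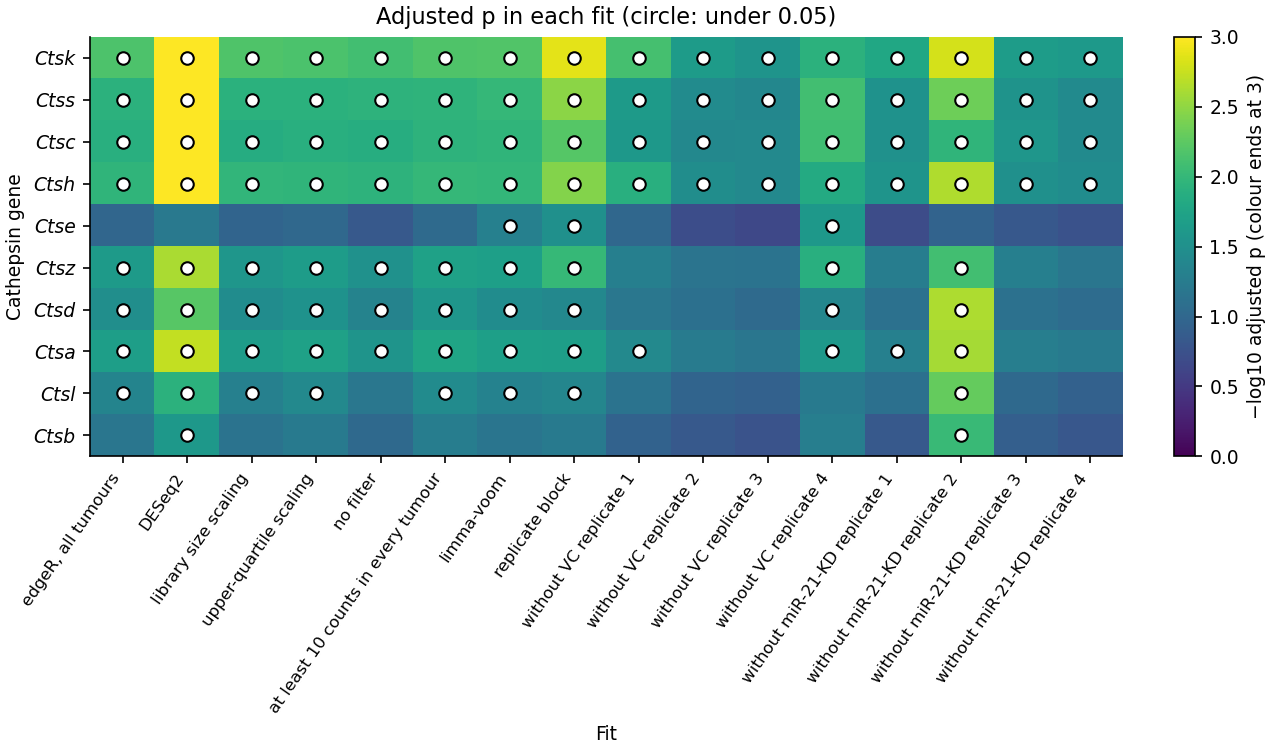
Adjusted p of each cathepsin (rows) in the edgeR fit of all tumours and in 15 other fits (columns), with brighter colours for smaller values on a −log10 scale that ends at 3 and circles where the value is under 0.05. The upper 4 rows, Ctsk, Ctss, Ctsc and Ctsh, have a circle in every column, and the lower rows lose theirs mostly where a tumour is left out.

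Strand was not stated for the counting, and for several cathepsins reads of another gene cannot be told apart. Exons of Ctsb share 774 bases with Fdft1 on the other strand, and those of Ctsa share 495 bases with Pltp and 324 with Neurl2, both on the other strand. Ctsl shares 1742 exon bases with the antisense gene Gm47123 and 395 with the pseudogene Gm49230. Ctsd shares 808 with Gm49369 on the same strand, and Ctsz shares 10 with Nelfcd. The exons of Ctsc, Ctse, Ctsh, Ctsk and Ctss shared no base with another annotated gene.

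The members together took 0.970%, 0.925%, 0.857% and 1.16% of the reads in VC tumours and 1.73%, 1.09%, 1.48% and 1.77% in miR-21-KD tumours. In summed CPM this was 9708 ± 1296 (SD, n = 4) and 15369 ± 3270 (SD, n = 4), and VC replicate 4 lay above miR-21-KD replicate 2. The make-up of the sum differed between the groups. Ctsb made up 34.5% ± 1.11 (SD, n = 4) of it in VC and 31.0% ± 0.810 (SD, n = 4) in miR-21-KD tumours. Ctss made up 10.1% ± 1.93 and 14.6% ± 0.911, and Ctsk 1.09% ± 0.336 and 2.76% ± 0.710. These shares are a description and were not tested.

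Levels of different genes were compared per length, as CPM per kilobase of the exons of transcripts matched to RefSeq. In VC tumours the order was Ctsl (1017 ± 65.7, SD, n = 4), Ctss (733 ± 238), Ctsb (707 ± 104), Ctsd (659 ± 45.2), Ctsz (455 ± 80.5), Ctsh (178 ± 31.4), Ctsa (155 ± 13.1), Ctsk (70.3 ± 23.7), Ctsc (56.9 ± 14.0) and Ctse (15.6 ± 8.60). Neighbours whose ranges over the VC tumours did not overlap were Ctsd and Ctsz, Ctsz and Ctsh, Ctsa and Ctsk, and Ctsc and Ctse. In miR-21-KD tumours Ctss was first (1664 ± 410, SD, n = 4), before Ctsl (1464 ± 341), Ctsb (1005 ± 224), Ctsd (973 ± 212), Ctsz (687 ± 114), Ctsh (316 ± 59.4), Ctsk (290 ± 121), Ctsa (229 ± 41.5), Ctsc (103 ± 18.7) and Ctse (27.1 ± 3.55). Ctss and Ctsl overlapped in both groups, and in miR-21-KD tumours the ranges were apart only below Ctsz, below Ctsa and below Ctsc. Ctsk stood apart below Ctsa in VC tumours and overlapped Ctsa in miR-21-KD tumours. With all annotated exons as length, an alternative chosen after seeing the data, Ctsl was at rank 5 in both groups, at 309 CPM per kilobase in VC tumours, since its annotated exons then count 6489 bases in place of 1971. Ctsh was then at rank 8 in place of 6, below Ctsa and Ctsk, at 63.9 in place of 178 CPM per kilobase in VC tumours and 114 in place of 316 in miR-21-KD tumours.

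The cathepsins also varied together within the groups. Between deviations of log2 CPM from the group means over the 8 tumours, all 45 pairs of members had a Pearson r above 0, from 0.31 for Ctsd and Ctse to 0.99 for Ctsa and Ctsb, with a median of 0.79. Ctsa and Ctsd (0.98), Ctsd and Ctsb (0.95), Ctss and Ctsz (0.95) and Ctsh and Ctsk (0.93) were further close pairs. Ctsc was closest to Ctss (0.82). These values are a description without a test, and r over all pairs of tested genes was not computed. Both genes of a pair come from the same libraries and the same mix of cells. In their groups, miR-21-KD replicate 2 was lowest for 9 members and VC replicate 4 highest for 8. Among all tested genes with a symbol, those whose deviations were most like Ctsk were Ms4a7, a membrane protein of macrophages (r = 0.994), Hdgfl3 (r = 0.992) and Pmel, a melanosome protein (r = 0.990). Ms4a7 and Hdgfl3 were higher in miR-21-KD tumours, with log2 fold changes of 1.37 and 1.38 and edgeR adjusted p of 0.00571 and 0.0110. Pmel had a log2 fold change of 0.08 (edgeR adjusted p = 0.843).

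Markers of several other cell types differed between the groups as well. Counts of called markers stand beside 19.6% of all genes tested that were higher and 19.5% that were lower. The summed level of 12 macrophage and monocyte markers was 3527 to 5480 CPM in VC and 6504 to 11102 CPM in miR-21-KD tumours. Of the 12, 9 were higher and 0 lower, and Fcgr1, Mertk and Lyz2 were not called. Among miR-21-KD tumours replicate 2 had the lowest sum of these markers, as it did for the cathepsins, and among VC tumours replicate 4 had the highest. By flow cytometry, which counts cells and not RNA, the study reported less monocyte infiltration with reduced miR-21 activity. The 8 fibroblast markers summed to 2418 to 6117 and 6539 to 15802 CPM, with 6 higher and 0 lower. The 8 dendritic cell markers summed to 61.9 to 190 and 242 to 393 CPM, with 4 higher (7 with DESeq2) and 0 lower. Of 7 T cell markers 6 were higher and 0 lower, with sums of 36.1 to 138 and 131 to 288 CPM. All 4 adipocyte markers were higher, with sums of 14.3 to 69.5 and 112 to 370 CPM. Counts of called markers also depended on single tumours: without VC replicate 3 they were 4 for macrophages and monocytes, 1 for fibroblasts and 1 for T cells. Fibroblast markers gave 3 without VC replicate 2 or miR-21-KD replicate 1 or 4 (and 1 lower without miR-21-KD replicate 1), T cell markers 2 without miR-21-KD replicate 1 or 4, and dendritic cell markers 7 without miR-21-KD replicate 2.

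Of the 8 neutrophil markers tested 0 were called in either direction by edgeR (2 higher at an unadjusted p under 0.05, and 1 each by DESeq2 and limma-voom), and their sums overlapped, at 300 to 839 and 392 to 741 CPM. Of 7 NK and cytotoxic markers 2 were higher and 0 lower (4 higher at an unadjusted p under 0.05, with DESeq2 and with limma-voom), with sums of 47.1 to 172 and 109 to 233 CPM. The endothelial markers gave 2 of 6 higher and 0 lower (against 19.6% and 19.5% of all genes). Their sums were 364 to 652 and 557 to 799 CPM. The B cell markers summed to 145 CPM in VC replicate 4 and 63.7 in miR-21-KD replicate 4, and to between 1.76 and 13.2 in the other 6 tumours, with 0 of 4 called by edgeR, DESeq2 or limma-voom and 0 at an unadjusted p under 0.05. VC replicate 4 was also the highest VC tumour for 8 of the 10 cathepsins. Skeletal muscle markers gave 1 of 2 lower and 0 higher, at 4.41 to 8.51 and 2.11 to 4.93 CPM, and 0 lower without VC replicate 3 or miR-21-KD replicate 1 or 3. Without VC replicate 4, NK and cytotoxic markers gave 5 higher and B cell markers 1, and without VC replicate 1 neutrophil markers gave 2. Without VC replicate 3 or miR-21-KD replicate 1, NK and cytotoxic markers gave 1. Endothelial markers gave 1 without any 1 tumour other than VC replicate 1 or miR-21-KD replicate 2, and 1 lower without VC replicate 3. In the fit blocked on replicate number 2 neutrophil markers were called higher and 1 endothelial marker lower.

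Osteoclasts and stomach mucosa are the cell types best known for Ctsk and Ctse. Of the osteoclast markers, Calcr had 2 reads, Oscar 37, Dcstamp 256, Ocstamp 547 and Atp6v0d2 6097 over all tumours. Atp6v0d2 was the 1 of the 3 tested that was higher (2 at an unadjusted p under 0.05, with DESeq2, with limma-voom and with upper-quartile scaling), and Dcstamp had a log2 fold change of 2.01 (edgeR adjusted p = 0.0502), with sums of 12.3 to 61.1 and 57.2 to 134 CPM. Of 10 gastric and mucosal markers only 2 were tested, with 0 called by edgeR (1 higher at an unadjusted p under 0.05, 1 by DESeq2 and 0 by limma-voom), Gkn2, Tff2 and Agr2 were at 0 counts in every tumour, and sums were 7.58 to 16.4 and 11.1 to 28.1 CPM. Of the carcinoma epithelium markers Krt19, Krt14, Epcam, Cdh1 and Esrp1, 5 of 7, were higher and Krt18 lower, with a median log2 fold change of 1.93, as in Krt19 from 21.6 ± 16.9 to 263 ± 142 CPM (SD, n = 4). Their sums overlapped at 1286 to 2213 and 899 to 1887 CPM. Krt8 was also lower at an unadjusted p under 0.05 and with DESeq2. Osteoclast markers gave 2 without VC replicate 4 or miR-21-KD replicate 2, gastric and mucosal markers 2 without miR-21-KD replicate 2 and 1 without VC replicate 1, and epithelial markers 3 without VC replicate 2 or 3. In the fit blocked on replicate number 2 osteoclast and 2 gastric and mucosal markers were called higher, and 2 epithelial markers lower. Krt18 lost its call with no filter and without VC replicate 1, 2 or 3 or miR-21-KD replicate 3 or 4, with adjusted p up to 0.0941. The part of the mix of cells in the cathepsin differences was not tested.

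**Figure D4:**
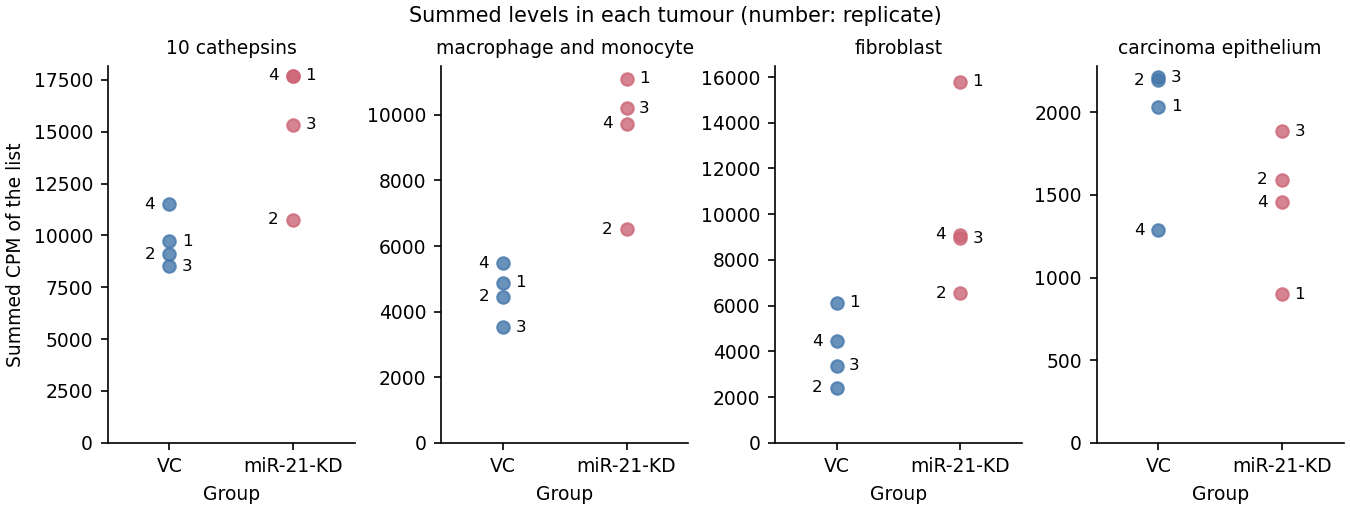
Summed CPM in each tumour (points, numbered by replicate) of the 10 cathepsins and of the macrophage and monocyte, fibroblast and carcinoma epithelium markers, each panel with its own axis from 0. The macrophage and fibroblast sums of the groups do not overlap, the cathepsin sums overlap through VC replicate 4 and miR-21-KD replicate 2, and the epithelial sums overlap.

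Of the cathepsins that are not among the 10, 4 passed the filter on low counts. Of these, 2 were higher and 0 lower (against 19.6% and 19.5% of all genes). Ctsf, a cysteine cathepsin with a cystatin-like propeptide, rose from 11.2 ± 2.49 (SD, n = 4) to 33.3 ± 11.1 CPM (SD, n = 4), with a log2 fold change of 1.57 (SE 0.28, edgeR adjusted p = 0.00700). Ctsw, found in cytotoxic lymphocytes, rose from 7.46 ± 4.25 to 22.0 ± 6.98 CPM, with a log2 fold change of 1.56 (SE 0.43, edgeR adjusted p = 0.0225, and up to 0.0570 without VC replicate 3 or miR-21-KD replicate 1 or 4). Ctso and Ctsg had log2 fold changes of 0.20 and 0.80 (edgeR adjusted p of 0.287 and 0.143). The other 9, among them the placental cathepsins Ctsj, Ctsm, Ctsq and Ctsr, had at most 1 read over all tumours, and 7 of them had 0.

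The protein inhibitors of cathepsins gave 2 of 9 tested genes higher and 0 lower, against 19.6% and 19.5% of all genes. Their median log2 fold change was 0.19. Cst3, the secreted inhibitor cystatin C, rose from 78.1 ± 16.9 to 141 ± 33.2 CPM (SD, n = 4), with a log2 fold change of 0.85 (edgeR adjusted p = 0.0148). Cst7, the lysosomal inhibitor cystatin F that acts on Ctsc, rose by 0.73 on the log2 scale (edgeR adjusted p = 0.0488), a call that was lost without any 1 tumour other than VC replicate 4 and under 2 of the other settings, with adjusted p up to 0.121. Cstb, the cytosolic inhibitor stefin B, was at 211 ± 6.93 and 216 ± 32.8 CPM, with a log2 fold change of 0.03 (edgeR adjusted p = 0.848). The stefin A genes are near-identical copies, and their counts are uncertain.

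Of 15 genes for sorting and processing of cathepsins, 6 were higher and 2 lower (against 19.6% and 19.5% of all genes), with a median of 0.22. The receptors did not move alike. Igf2r, the large mannose 6-phosphate receptor, fell from 344 ± 55.9 to 117 ± 25.6 CPM (SD, n = 4), a log2 fold change of -1.56 (SE 0.18, edgeR adjusted p = 0.00501). M6pr, the small mannose 6-phosphate receptor, rose from 226 ± 16.5 to 295 ± 42.2 CPM, a log2 fold change of 0.38 (edgeR adjusted p = 0.0316). Sort1, the sorting receptor sortilin, rose from 13.5 ± 6.77 to 51.1 ± 17.2 CPM, a log2 fold change of 1.91 (SE 0.38, edgeR adjusted p = 0.00905). Igf2r and Sort1 kept their calls in all 15 other fits, and M6pr lost its call without VC replicate 1, 2 or 3 or miR-21-KD replicate 1 or 4, with adjusted p up to 0.0914. Lgmn, the endopeptidase legumain that cuts several cathepsins into their chains, rose from 1378 ± 176 to 2346 ± 332 CPM (log2 fold change 0.77, edgeR adjusted p = 0.00854). The Golgi adaptor Gga1 fell by 0.36 on the log2 scale (edgeR adjusted p = 0.0489) and lost its call under upper-quartile scaling, under both other filters and without any 1 tumour other than VC replicate 4 or miR-21-KD replicate 2, with adjusted p up to 0.127. The count of these genes higher was 2 without VC replicate 3, and 3 without VC replicate 1 or 2 or miR-21-KD replicate 1, 3 or 4.

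Among 39 other lysosomal hydrolases and activators 14 were higher and 4 lower (against 19.6% and 19.5% of all genes). Their median log2 fold change was 0.28. The phospholipase Pla2g15 rose by 1.26, the acid lipase Lipa by 0.57 and the carboxypeptidase Prcp by 0.97 on the log2 scale (edgeR adjusted p of 0.00501, 0.00699 and 0.00807). The sulphatases Arsa and Arsb had log2 fold changes of -0.79 and -0.67 (edgeR adjusted p of 0.00571 and 0.00970), and Aga had -0.33 (adjusted p = 0.0216, and up to 0.0649 without VC replicate 2 or miR-21-KD replicate 3). The partners of Ctsa were Neu1, at 0.59 (adjusted p = 0.0180, and up to 0.0563 without VC replicate 2 or 3 or miR-21-KD replicate 4), and Glb1, at -0.09 (adjusted p = 0.517). The count of hydrolases higher was 8 without VC replicate 3 and 9 without VC replicate 2 or miR-21-KD replicate 4, and 2 were lower without VC replicate 2.

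Of 17 lysosomal membrane genes 8 were higher and 1 lower (against 19.6% and 19.5% of all genes), with a median of 0.42. Scarb2, a lysosomal receptor for glucocerebrosidase, rose by 0.93, the chloride transporter Clcn7 by 0.53 and the cholesterol transporter Npc1 by 0.85 on the log2 scale (edgeR adjusted p of 0.00759, 0.0107 and 0.0123), and Laptm4b had -0.74 (adjusted p = 0.00760). Of 22 subunits and accessory genes of the vacuolar ATPase, the pump that acidifies lysosomes, 14 were higher and 0 lower. The median was 0.41, and of all genes tested 19.6% were higher and 19.5% lower. Atp6v0a1 rose by 0.70, Atp6v0d1 by 0.46 and Atp6v0d2, also an osteoclast marker, by 2.09 (edgeR adjusted p of 0.00629, 0.0103 and 0.0118). The count of ATPase genes higher was 4 without VC replicate 3 or miR-21-KD replicate 3 and 5 without VC replicate 2 or miR-21-KD replicate 4.

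Among the 4 listed factors that recognise the E-box motif, Tfec rose by 0.98 and Mitf by 0.95 on the log2 scale (edgeR adjusted p of 0.00694 and 0.0215). Tfeb had a log2 fold change of 0.50 (adjusted p = 0.112, and under the threshold without VC replicate 4 or miR-21-KD replicate 2) and Tfe3 of -0.00 (adjusted p = 0.985), with 108 ± 0.498 and 107 ± 3.23 CPM (SD, n = 4). Mitf lost its call without VC replicate 2 or 3 or miR-21-KD replicate 1, 3 or 4, with adjusted p up to 0.0621.

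Genes of the process in which a single cathepsin is best known to act were listed for Ctsk, Ctss and Ctsc. For Ctsk these are matrix genes, and 4 of the 4 tested were higher (against 19.6% of all genes), with a median of 1.34. Col1a1 rose from 1257 ± 479 to 3503 ± 1231 CPM (SD, n = 4; log2 fold change 1.48, SE 0.34, edgeR adjusted p = 0.0134), Col1a2 by 1.44 (adjusted p = 0.0139) and Eln by 1.23 (adjusted p = 0.0263) on the log2 scale. Without miR-21-KD replicate 1 or 4, 2 of the 4 were called, and Eln was then at an adjusted p of up to 0.0666. These are also genes of fibroblasts, whose markers moved with the groups.

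For Ctss these are class II antigen presentation genes, of which Cd74 encodes what Ctss cuts, and 0 of 8 were called by edgeR, with a median of 0.92 and all 8 estimates above 0. At an unadjusted p under 0.05, 3 of them were higher, and DESeq2 called 4 and limma-voom 1. Cd74, the invariant chain, was at 1413 ± 928 and 2817 ± 866 CPM (SD, n = 4), with a log2 fold change of 1.00 (SE 0.43, edgeR adjusted p = 0.0913). Without VC replicate 4, whose B cell markers stood apart, all 8 were called higher, with Cd74 at 1.54, and in the fit blocked on replicate number 6 were. For Ctsc these are granule serine proteases, of which 1 of 9 tested was higher and 0 lower, with a median of 0.55. Of all genes tested, 19.6% were higher and 19.5% lower. The granule protease called higher was Prtn3, the neutrophil proteinase 3, at 1.84 ± 1.25 and 5.85 ± 3.38 CPM. Its log2 fold change was 1.66 (edgeR adjusted p = 0.0426). This call was lost in 7 of 14 other fits, with adjusted p up to 0.122. Those fits include each one without 1 tumour other than VC replicate 4 or miR-21-KD replicate 2. Without VC replicate 4, 4 of these genes were called, and 2 in the fit blocked on replicate number.

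**Figure D5:**
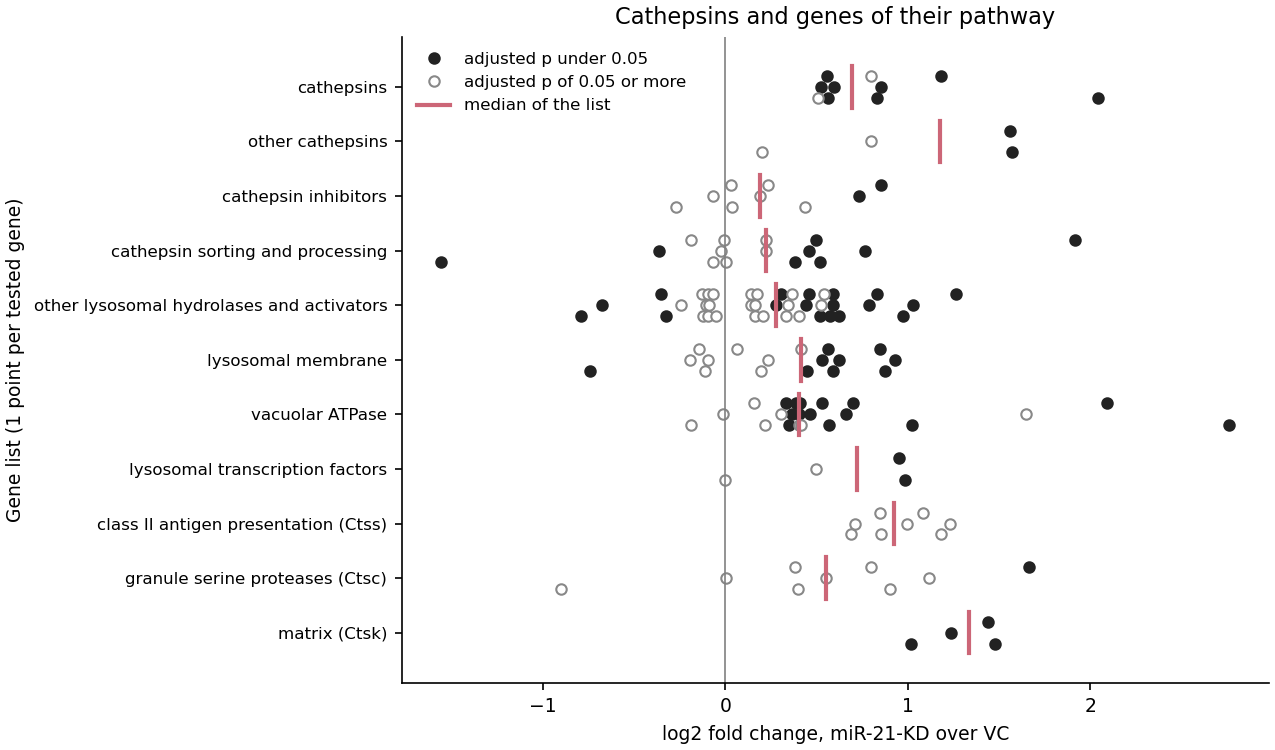
log2 fold change between miR-21-KD and VC tumours (x axis) of every tested gene of the 10 cathepsins and of 10 lists of genes around them, filled where the adjusted p is under 0.05, with the median of each list as a vertical line. All 10 cathepsins lie above 0, and sorting receptor Igf2r is the point at -1.56.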

How the data were processed

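The table that the authors deposited holds raw counts per Entrez gene, not normalised, with a column for each of the 8 tumours. The submitters' processing notes name Subread, featureCounts, edgeR, limma and the build mm10 (GRCm38). Their versions, the annotation and the strand setting are not given in the sources used here. Symbols came from GRCm38.p6 and matched 25275 of 27179 identifiers.

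The filter filterByExpr (count minimum 10, total minimum 15) retained 14382 genes, which held 99.852% of counts. The 4 miR-21-KD and 4 VC tumours were compared by the robust quasi-likelihood test of edgeR 4.0.16 (R 4.3.3) after TMM scaling, with Benjamini-Hochberg adjustment and a threshold of 0.05. The F statistic and the estimate gave the standard error. CPM values use the library size times the TMM factor, with a prior count of 2 for log2 CPM. Limits set by a count of 0 use 3 counts and cover counting error only. The code was tested on simulated data.

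Exon lengths and 3′ UTRs came from GENCODE vM21, with lengths over the transcripts matched to RefSeq. Alternatives were DESeq2 1.42.0, limma 3.58.1 (voom), 2 other scalings, 2 other filters, the replicate number as a block, and each tumour left out. Tumours of a group differed beyond sampling noise (chi-square per degree of freedom 12.6 to 70.7). Tumours with the same replicate number deviated together (r = 0.27, 0.42, 0.18 and 0.38), although the labels name no shared litter or batch.

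The members, lists and alternatives were chosen with earlier results of these data known. Genes named are the 10 cathepsins, from each list up to 3 called genes per direction, taken by adjusted p, members needed to say what a list holds, and the 3 genes most like the cathepsin of smallest adjusted p. The values of 1 gene that this rule names are not reported here.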

Additional observations from a re-analysis of the deposited data

Results flagged for a closer look

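In the miR-21-KD group, replicate 2 stood apart from the other 3 tumours in Ctsh, the aminopeptidase, at 367 CPM against a nearest value of 553 CPM, a gap of 0.917 of the range of the group. In the VC group, replicate 4 stood apart in Ctsz, the carboxypeptidase, at 829 CPM against a nearest value of 608 CPM, a gap of 0.926 of the range. Both gaps exceed Dixon's 95% critical value for 4 values, which chance exceeds in about 1 of 20 groups. The 10 cathepsins in both groups made 20 such comparisons, so about 1 is what chance gives, and the genes vary together, so the comparisons are not independent.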

How the results depend on the processing

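The number of cathepsins higher in miR-21-KD tumours was 8, and it was 9 with DESeq2, limma-voom or the replicate number as a block, 7 with no filter, and 8 with each of the 3 remaining scalings and filters. With 1 tumour left out it ranged from 4 to 9. Of all genes, 3309 of 14382 were called higher with the block and 2625 of 20730 with no filter. The number of cathepsins lower was 0 in all 15 alternatives. Of 150 estimates of single cathepsins under the alternatives, 121 stayed on their side of the threshold, 24 lost and 5 gained a call, and 0 changed direction. The block changed no call of a cathepsin other than Ctse. The summed CPM of the 10 genes differed between groups by 5660 with TMM and by 5407 with library size alone. With all annotated exons as length, 9 of 20 levels per kilobase moved by more than 1 SD. With 4 tumours a group, Ctsb and Ctse are not shown to be equal between the groups.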
